A study of Rattus norvegicus with 6 samples.

Results

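Tnc, Postn, Fn1, Thbs1, Sparc, Lum, Dcn, Eln, Fbn1 and Lox encode glycoproteins and elastic fibre proteins of the dermal matrix, and their transcripts were followed in rat back skin after dosing with gefitinib or afatinib, which block the kinase of the receptor for epidermal growth factor (EGFR). The genes were taken by symbol from the deposited gene count table. All 10 were found there among 34225 loci, and all 10 were among the 16398 loci that passed the filter on low counts. The groups were Sprague-Dawley rats with a rash under gefitinib (80 mg/kg) or afatinib (30 mg/kg), both given by mouth each day until the rash appeared, and untreated rats, with 2 libraries in each group. All 6 libraries were made from messenger RNA of flash-frozen skin, so every cell type of the sample is mixed in each value, and in such bulk samples fewer cells of a type and less RNA per cell cannot be told apart. The labels give neither the animals' age and sex nor the days of dosing, and name no vehicle. They do not say that the libraries of a group come from separate animals, so each p-value measures the spread between these libraries.

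Dermal matrix is laid down mainly by fibroblasts. Tenascin-C (Tnc), periostin (Postn), thrombospondin-1 (Thbs1) and SPARC (Sparc) are matricellular proteins, which act on cells through receptors and growth factors more than as load-bearing fibres, and Tnc and Fn1 are known for their abundance in wounds. Fibronectin (Fn1) joins integrins to the matrix, lumican (Lum) and decorin (Dcn) are small leucine-rich proteoglycans that bind collagen fibrils, and elastin (Eln) is deposited on fibrillin-1 (Fbn1) microfibrils and cross-linked by lysyl oxidase (Lox).

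Tnc was higher in both inhibitor groups than in untreated skin and passed the test against it. None of the other 9 genes passed in either direction. Their log2 fold changes over untreated skin were mostly below 0, Thbs1 under both inhibitors and Lum under afatinib being the exceptions. Sparc and Postn had the lowest fold changes under gefitinib, both at -1.85 on the log2 scale.

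The libraries differed in ways that touch these genes. Totals ran from 17206456 to 22086673 counts. The 10 genes together held 0.445% of all counts in gefitinib library 1, 0.107% in gefitinib library 2 (95% Wilson interval 0.106% to 0.109%, counting error only), 0.369% and 0.373% in afatinib libraries 1 and 2, and 0.546% and 0.361% in untreated libraries 1 and 2. Gefitinib library 2 was the lowest of all 6 libraries for 9 of the 10 genes, Tnc being the exception. The share of all genes tested that were lowest in that library was not counted. Whether this order is particular to the 10 genes is therefore not known. Afatinib library 1 correlated with afatinib library 2 at 0.925 over the genes tested and with the untreated libraries at 0.935 and 0.939, as a description over genes. Summed markers of fibroblasts (10 of 10 in the file, none at 0) were at 590 and 233 CPM (counts scaled to a common library size with TMM factors) under gefitinib, 788 and 467 CPM under afatinib and 992 and 786 CPM in untreated skin, in the order of replicates 1 and 2. Skeletal muscle markers (8 of 11 in the file, none at 0) held 3.61% to 6.50% of counts under gefitinib, 4.09% to 11.4% under afatinib and 14.3% to 14.9% in untreated skin. Hair shaft markers (6 of 6) summed to 677 to 943 CPM, 156 to 685 CPM and 11.1 to 35.9 CPM in gefitinib, afatinib and untreated skin, with 1 marker at 0 in untreated library 1. Basal keratinocyte markers (7 of 7, none at 0) summed to 2393 to 2409 CPM, 2383 to 4028 CPM and 818 to 1462 CPM in the same groups. The part of these differences in the results that follow was not tested.

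The promoters of Tnc, which passed the test, and of Sparc and Postn, which had the lowest fold changes under gefitinib, are shown so that the gene that was higher can be set beside those that were not. They come from RefSeq, build GRCr8, which held 6 of the 10 genes (Tnc, Postn, Thbs1, Sparc, Lum and Fbn1), and run from 250 bases before to 50 bases after the annotated start, on the gene's strand. Capitals mark the TATA box letters TATAAA and the SMAD element letters CAGAC on either strand (read as GTCTG on the other strand). The Tnc promoter lies at chr5:82476082-82476381 on the minus strand, the Sparc promoter at chr10:40038767-40039066 on the minus strand and the Postn promoter at chr2:140677811-140678110 on the plus strand.
Tnc: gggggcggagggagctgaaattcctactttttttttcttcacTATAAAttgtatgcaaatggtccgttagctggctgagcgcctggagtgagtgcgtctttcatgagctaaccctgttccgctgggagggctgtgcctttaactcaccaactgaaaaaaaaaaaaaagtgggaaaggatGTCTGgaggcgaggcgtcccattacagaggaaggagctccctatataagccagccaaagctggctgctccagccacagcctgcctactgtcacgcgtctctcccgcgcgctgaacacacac
Sparc: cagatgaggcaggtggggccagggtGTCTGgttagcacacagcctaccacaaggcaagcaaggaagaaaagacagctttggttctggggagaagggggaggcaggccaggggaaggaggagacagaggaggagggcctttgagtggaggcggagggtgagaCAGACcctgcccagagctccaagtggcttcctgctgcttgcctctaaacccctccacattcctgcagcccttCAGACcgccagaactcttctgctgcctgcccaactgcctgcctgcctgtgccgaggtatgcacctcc
Postn: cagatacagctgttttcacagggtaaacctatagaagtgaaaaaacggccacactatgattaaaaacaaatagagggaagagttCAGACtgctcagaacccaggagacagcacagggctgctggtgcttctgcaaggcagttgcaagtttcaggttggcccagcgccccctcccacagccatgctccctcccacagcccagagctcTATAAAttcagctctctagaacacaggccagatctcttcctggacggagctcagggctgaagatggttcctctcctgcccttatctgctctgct
Counted from the start, with position 1 as its first base, TATAAA began at position -208 in Tnc and at -44 in Postn, and was not in the Sparc window. Only these exact letters were searched. The similar letters tatataa, which stand in lower case nearer the annotated start of Tnc, were therefore not marked. TATAAA stood in 14.2% of the 33469 RefSeq promoters of this length. CAGAC was found 1 time in Tnc (position -71, minus strand), 1 time in Postn (-166) and 3 times in Sparc (-225, -89 and -17), and in 50.1% of all promoters. None of the matches overlapped another. The AP-1 letters TGANTCA (7.33% of promoters) and the CArG box (1.64%) were in none of the 6 windows. These are matches of letters and not measured binding sites.

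Tenascin-C is a large hexameric glycoprotein that is scarce in resting adult dermis. Its gene (ENSRNOG00000058645) lies on chromosome 5 at 79789671 to 79874671 in the files' coordinates, for which no build is stated in the sources used here. Tnc had 102 and 48.5 CPM under gefitinib and 65.7 and 186 CPM under afatinib, against 9.47 and 14.0 CPM in untreated skin. All 4 inhibitor libraries were above both untreated libraries, and the higher library was 2.10 times the lower under gefitinib and 2.83 times under afatinib. The log2 fold change was 2.68 ± 0.58 (SE) under gefitinib (edgeR quasi-likelihood test, adjusted p = 0.0256) and 3.42 ± 0.60 under afatinib (adjusted p = 0.0361). With both inhibitor groups set against untreated skin, it was 3.05 ± 0.56 (adjusted p = 0.0180). Tnc was thus 1 of 10 genes called higher in each of these comparisons, where 12.3% of all genes tested were called higher under gefitinib, 3.6% under afatinib and 11% under both (17.7%, 3.98% and 16% in either direction). Both libraries of the group lay above both untreated libraries for 38.8% of all genes under gefitinib and 31.5% under afatinib. These comparisons share the untreated libraries.

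The Tnc call rested on few libraries. Calls over all genes under each inhibitor also fell in number without either gefitinib library or either untreated library. Such losses are therefore not particular to Tnc. Under afatinib its log2 fold change was 3.31 without gefitinib library 1 and 3.31 without gefitinib library 2, which are not part of that comparison. Under gefitinib it was lost without gefitinib library 1 (adjusted p = 0.0942), gefitinib library 2 (0.0531), untreated library 1 (0.148) or untreated library 2 (0.128). Under afatinib it was lost without gefitinib library 1 (0.0572), gefitinib library 2 (0.0622), afatinib library 2 (0.0665), untreated library 1 (0.227) or untreated library 2 (0.202), and it was kept without afatinib library 1, with a log2 fold change of 3.97. It was also lost under afatinib by limma-voom (adjusted p = 0.075), with only the groups compared in the fit (0.0673) and with the replicate number as a block (0.0504), and for both inhibitors together without untreated library 1 (0.134) or untreated library 2 (0.124). The log2 fold change stayed positive under every alternative run, from 1.99 to 3.79 under gefitinib and from 2.42 to 4.16 under afatinib.

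**Figure D1:**
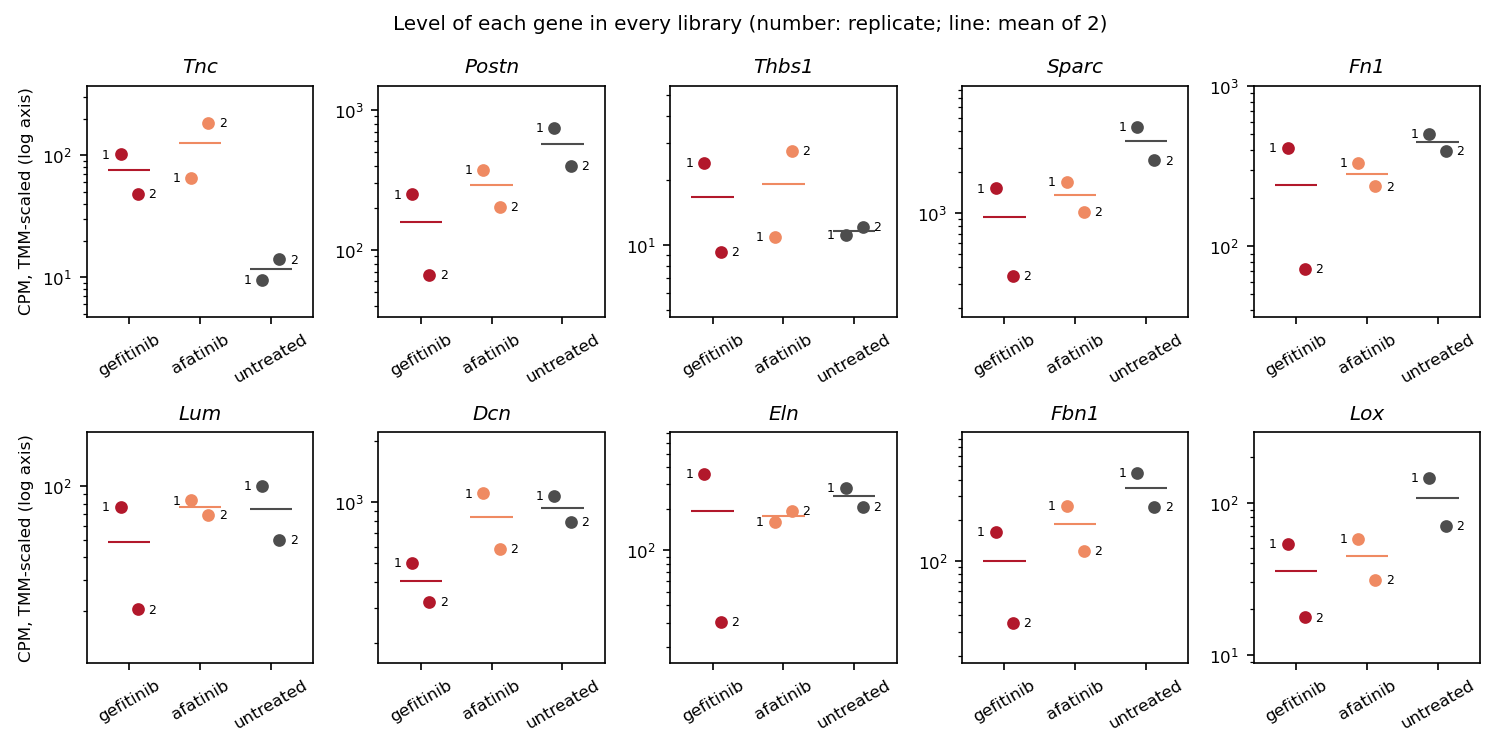
Level of each of the 10 genes in every library, as CPM on a log axis, for gefitinib, afatinib and untreated skin; points are libraries with their replicate number and the line is the mean of 2. Tnc stands above both untreated libraries in all 4 inhibitor libraries, and gefitinib library 2 is the lowest point in 9 of the 10 panels. The share of all genes lowest in that library was not counted.

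Postn, Thbs1 and Sparc, the other matricellular genes, did not pass the test. Postn, which binds collagen and integrins, had 249 and 66.6 CPM under gefitinib and 374 and 203 CPM under afatinib, against 742 and 397 CPM in untreated skin. Sparc, a collagen-binding glycoprotein, had 1520.3 and 346 CPM under gefitinib and 1689 and 1027 CPM under afatinib, against 4305 and 2444 CPM in untreated skin. For both genes all 4 inhibitor libraries lay below both untreated libraries. The log2 fold change of Postn was -1.85 ± 0.68 (adjusted p = 0.0945) under gefitinib and -0.98 ± 0.66 (adjusted p = 0.423) under afatinib. Sparc had -1.85 ± 0.78 (adjusted p = 0.129) and -1.31 ± 0.77 (adjusted p = 0.359). Without gefitinib library 2, the value under gefitinib was -1.27 for Postn and -1.23 for Sparc, and without gefitinib library 1 it was -3.15 and -3.34. Thbs1, which binds CD47 and can release active TGF-beta from its latent form, had 24.1 and 9.27 CPM under gefitinib and 10.9 and 27.5 CPM under afatinib, against 11.1 and 12.2 CPM in untreated skin. By CPM, in each inhibitor group 1 library was above both untreated libraries and the other below both. The low ones were gefitinib library 2 and afatinib library 1. As a share of all counts, these held 0.00103% and 0.000976%, against 0.000798% and 0.000946% in untreated libraries 1 and 2. On that measure all 4 inhibitor libraries were above both untreated libraries. Its log2 fold change was 0.52 ± 0.55 (adjusted p = 0.515) under gefitinib and 0.73 ± 0.56 (adjusted p = 0.479) under afatinib.

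Fn1, the adhesive glycoprotein, had 409 and 72.6 CPM under gefitinib and 330 and 236 CPM under afatinib, against 500.2 and 392 CPM in untreated skin. Gefitinib library 1 lay between the untreated libraries, while gefitinib library 2 and both afatinib libraries lay below them. The log2 fold change was -0.89 ± 0.71 (adjusted p = 0.385) under gefitinib and -0.66 ± 0.70 (adjusted p = 0.615) under afatinib. The higher gefitinib library was 5.63 times the lower one.

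Of the small leucine-rich proteoglycans, Lum had 76.6 and 20.5 CPM under gefitinib and 83.3 and 68.9 CPM under afatinib, against 99.9 and 49.9 CPM in untreated skin. Both afatinib libraries and gefitinib library 1 lay inside the range of the untreated libraries. Dcn, which also binds TGF-beta, had 497 and 319 CPM under gefitinib and 1099 and 587 CPM under afatinib, against 1072 and 793 CPM in untreated skin. Both gefitinib libraries were below both untreated libraries, and by CPM the afatinib libraries stood on either side of them. In the deposited levels per gene length (FPKM), afatinib library 1 was at 577 and untreated library 1 at 581. On the log2 scale Dcn differed from untreated skin by -1.19 ± 0.48 (adjusted p = 0.115) under gefitinib and -0.15 ± 0.47 (adjusted p = 0.879) under afatinib. Lum had -0.62 ± 0.60 (adjusted p = 0.468) and 0.02 ± 0.59 (adjusted p = 0.985).

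Of the elastic fibre genes, Eln spread the most between libraries of 1 group. Eln had 355 and 30.4 CPM under gefitinib and 161 and 191 CPM under afatinib, against 284 and 206 CPM in untreated skin. The higher gefitinib library was 11.7 times the lower, and these were the highest and the lowest of all 6. Its log2 fold change under gefitinib, -0.34 ± 0.89 (adjusted p = 0.797), was -3.06 without gefitinib library 1 (adjusted p = 0.0405) and 0.46 without gefitinib library 2. Under afatinib it was -0.48 ± 0.89 (adjusted p = 0.783), with both libraries below the untreated ones. Fbn1 had 163 and 35.1 CPM under gefitinib and 255 and 118 CPM under afatinib, against 446 and 253 CPM in untreated skin. By CPM afatinib library 1 was just above untreated library 2, and the other 3 inhibitor libraries were below both untreated libraries. In FPKM afatinib library 1, at 25.3, was below untreated library 2, at 25.9. Lox had 53.2 and 17.6 CPM under gefitinib and 57.7 and 30.9 CPM under afatinib, against 144 and 69.9 CPM in untreated skin, with all 4 inhibitor libraries below both untreated ones. On the log2 scale Fbn1 differed from untreated skin by -1.81 ± 0.74 (adjusted p = 0.120) under gefitinib and -0.90 ± 0.72 (adjusted p = 0.495) under afatinib. Lox had -1.60 ± 0.60 (adjusted p = 0.101) and -1.27 ± 0.59 (adjusted p = 0.263). The Lox locus overlaps Zfp474 on the opposite strand, and the sources used here do not state the strand of counting. Zfp474 had at most 39 counts in any library and Lox at least 402. The effect of the overlap on the Lox counts was not tested.

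**Figure D2:**
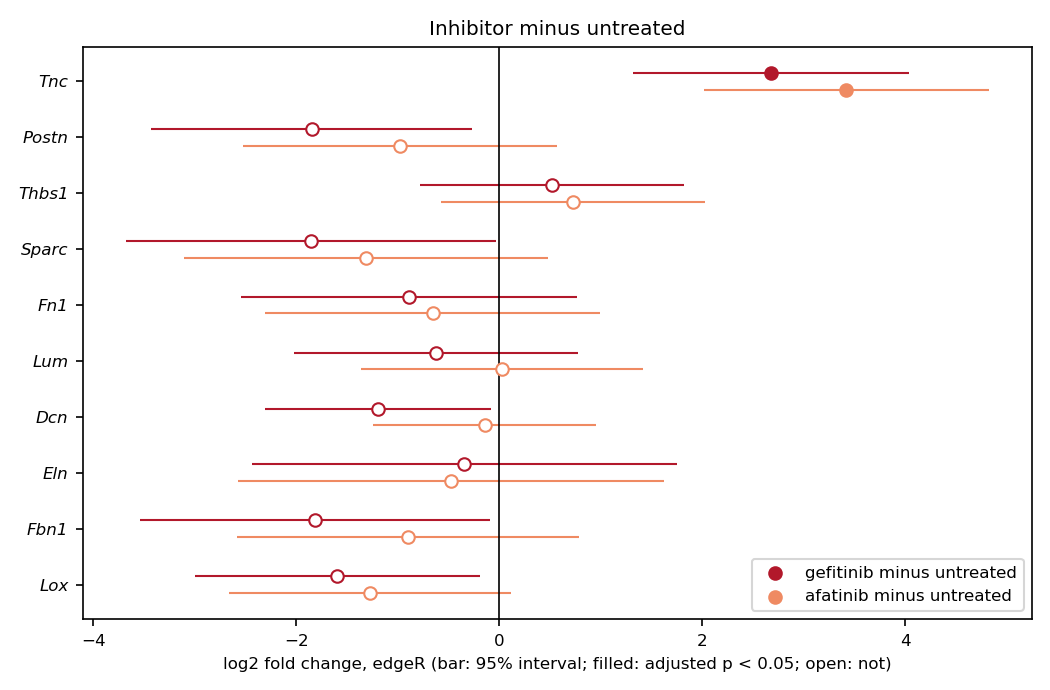
Log2 fold change of the 10 genes for gefitinib and afatinib over untreated skin (x axis; bars are 95% intervals from edgeR, and filled points passed an adjusted p of 0.05). Tnc, at 2.68 and 3.42, carries the 2 filled points.

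Over the 10 genes, none was called lower under gefitinib, where 5.45% of all genes tested were called lower, none under afatinib, where 0.372% were, and none with both inhibitors, where 4.93% were. At an unadjusted p under 0.05, 5 of the 10 were lower under gefitinib (15.9% of all genes), 0 under afatinib (5.91%) and 3 under both inhibitors (14.4%). DESeq2 called Postn, Sparc, Dcn, Fbn1 and Lox lower under gefitinib (12.6% of all genes) and 0 of the 10 lower under afatinib (3.04%). limma-voom called none of the 10 lower under gefitinib (5.26% of all genes) or afatinib (0.0122%). The log2 fold change was negative for 8 of 10 genes under gefitinib (48.4% of all genes tested) for 7 of 10 under afatinib (45%) and for 8 of 10 with both (47.1%). By CPM, both gefitinib libraries lay below both untreated libraries for 5 genes, Postn, Sparc, Dcn, Fbn1 and Lox (33.9% of all genes), and both afatinib libraries did for 5, Postn, Sparc, Fn1, Eln and Lox (21.8%). Also by CPM, all 4 inhibitor libraries lay below for 3, Postn, Sparc and Lox (18.8%), and above for Tnc alone of the 10 (27.2%). The median log2 fold change of the 10 was -1.04 under gefitinib and -0.57 under afatinib, beside 0.04 and 0.09 over all genes tested.

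**Figure D3:**
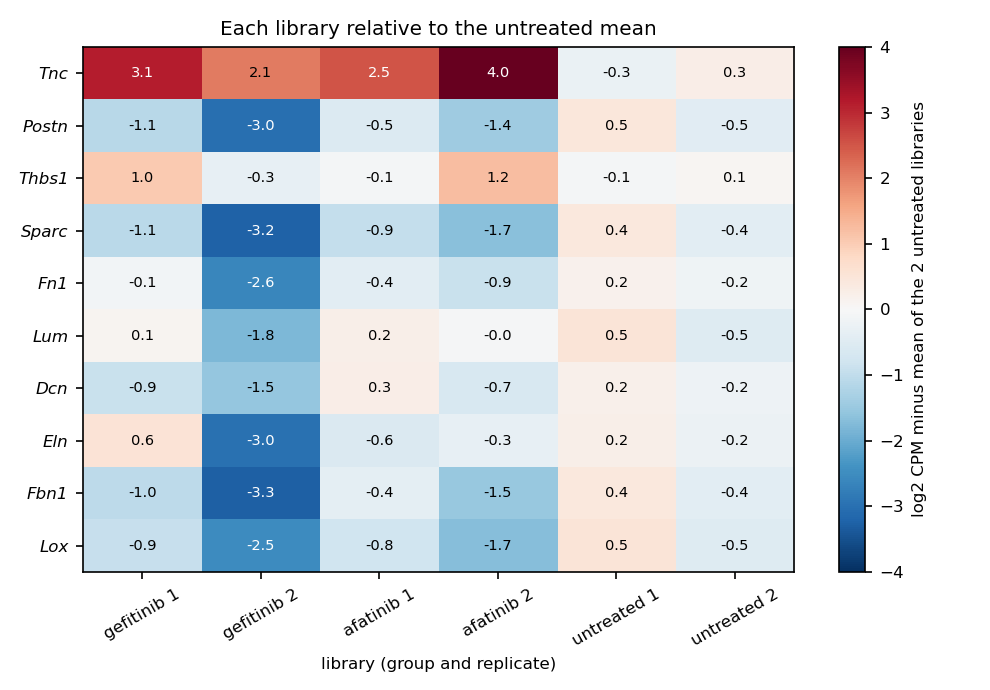
Difference of each library's log2 CPM from the mean of the 2 untreated libraries (colour and number) for the 10 genes, with libraries in columns. The Tnc row is positive in the 4 inhibitor columns, and the gefitinib 2 column holds the lowest value of each other row. How many of all genes were lowest there was not counted.

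The size of these differences depended on the scale set between libraries. On total counts alone the median of all genes was shifted to 0.73 under gefitinib and 0.71 under afatinib, and with skeletal muscle markers taken out of the totals to 0.57 and 0.59. With the summed fibroblast markers as the scale, chosen after the data were seen, it was 1.41 and 0.67. The median of the 10 genes was -0.30 and 0.04 on total counts, -0.47 and -0.08 without skeletal muscle markers and 0.04 and 0.02 on the fibroblast scale. Postn, Sparc, Fbn1 and Lox stayed negative on each scale under both inhibitors, whereas Eln turned positive on the other scales under both, Dcn turned positive under afatinib on all 3 and under gefitinib on the fibroblast scale, and Lum turned positive under gefitinib on total counts and on the fibroblast scale. Tnc passed the test on each of the 4 scales under both inhibitors. Of the 10 fibroblast markers themselves, none passed the test under gefitinib (all genes, 17.7%) or afatinib (3.98%). At an unadjusted p under 0.05, 4 were lower under gefitinib (all genes, 15.9%) and 0 under afatinib (5.91%). Their median log2 fold change was -1.10 under gefitinib and -0.19 under afatinib.

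**Figure D4:**
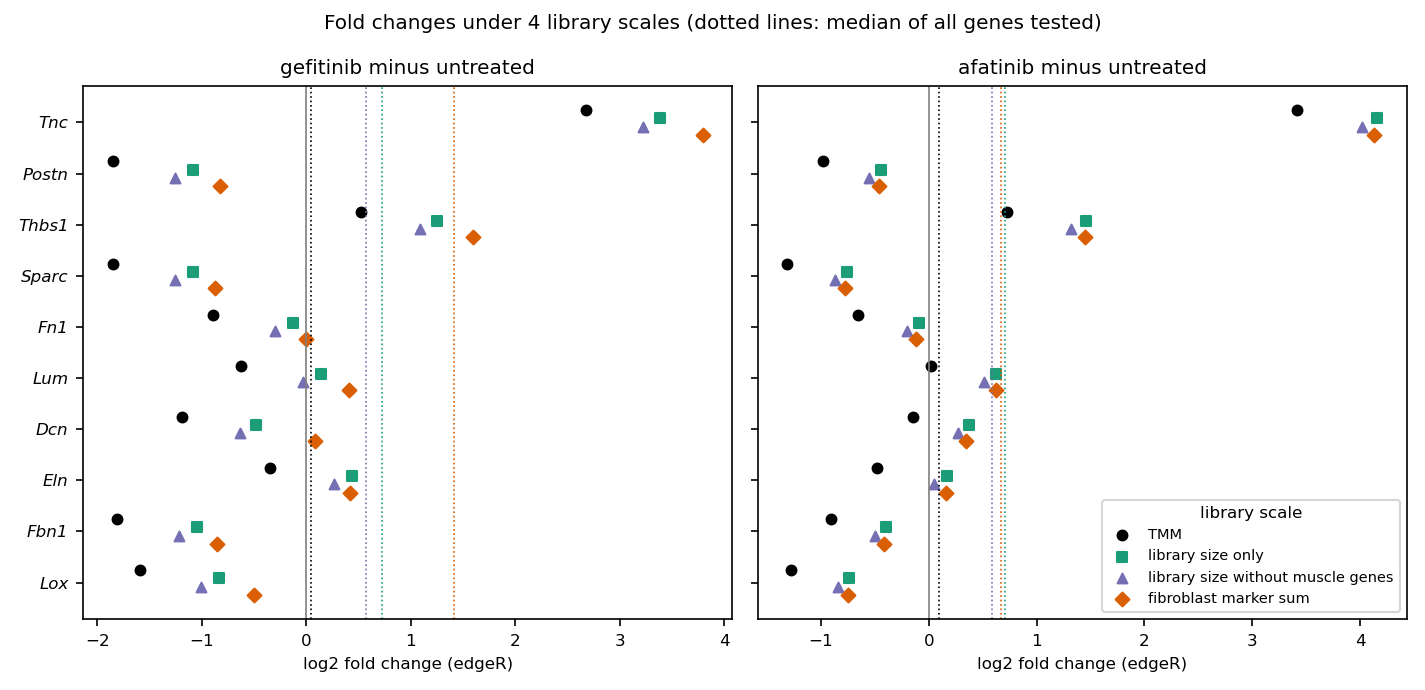
Log2 fold change of the 10 genes under 4 library scales (symbols) for gefitinib and afatinib over untreated skin, with the median of all genes as a dotted line in the colour of each scale. Tnc lies to the right of every dotted line, while Postn, Sparc, Fbn1 and Lox lie left of 0 on each scale.

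Ratios of FPKM (a level per gene length, as deposited) within a library do not depend on that scale. The level of Tnc over that of Fn1 was 0.291 and 0.778 under gefitinib and 0.232 and 0.915 under afatinib, against 0.0221 and 0.0416 in untreated skin. Over Dcn, Tnc stood at 0.0529 and 0.0393 under gefitinib and 0.0154 and 0.0816 under afatinib, against 0.00228 and 0.00456 in untreated skin. The inhibitor libraries were above the untreated ones in both ratios, with no overlap. Eln over Fbn1 was 5.99 and 2.39 under gefitinib and 1.73 and 4.46 under afatinib, against 1.76 and 2.24 in untreated skin, so that the afatinib libraries stood on either side of the untreated range. Such ratios show unequal levels of the paired genes and not which of them differed.

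Per gene length, Sparc had the highest level of the 10 in untreated skin (mean 1654 FPKM), followed by Dcn (507), Postn (178), Eln (69.0), Fn1 (53.7), Lum (37.6), Fbn1 (35.7), Lox (22.5), Thbs1 (3.22) and Tnc (1.65). The neighbouring pairs Eln and Fn1, Fn1 and Lum, Lum and Fbn1, and Fbn1 and Lox overlapped between their 2 libraries, and the other neighbours did not. Tnc was 10th there, 7th under gefitinib (10.2 ± 5.01 FPKM, SD, n = 2) and 8th under afatinib (16.6 ± 10.9 FPKM, SD, n = 2). Its FPKM range overlapped those of Eln, Fn1, Lum, Fbn1 and Lox under gefitinib, and those of Fbn1 and Lox under afatinib. Its places in the inhibitor groups are therefore not firm. Thbs1 was 10th in both inhibitor groups.

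Afatinib was also set against gefitinib, 2 regimens whose doses differ and whose days of dosing are not given. None of the 10 genes was called, and 0% of all genes were called by edgeR in this comparison (5.77% at an unadjusted p under 0.05, and 31 genes by DESeq2 and 0 by limma-voom). Tnc differed by 0.74 on the log2 scale (95% interval -0.53 to 2.02, adjusted p = 0.794), an interval that holds differences in either direction. Dcn was the gene of the 10 with both afatinib libraries above both gefitinib libraries (17.1% of all genes), at 1.05 (95% interval -0.06 to 2.16, adjusted p = 0.787). Of the 10 log2 fold changes 1 was negative (46.8% of all genes), and their median was 0.59, and without gefitinib library 2 that median was -0.09.

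Genes that work with these 10 were followed in 6 lists, whose counts stand beside the shares of all genes tested, 12.3% called higher and 5.45% called lower under gefitinib, 3.6% and 0.372% under afatinib. Of 18 tested elastic fibre assembly genes (19 listed), 1 rose (all genes, 12.3%) and 0 fell (5.45%) under gefitinib, and 0 passed under afatinib. At an unadjusted p under 0.05, 2 were higher and 4 lower under gefitinib (all genes lower, 15.9%). Under afatinib 1 was higher and 0 were lower (all genes lower, 5.91%). The share of all genes higher at that threshold was not counted. DESeq2 called 2 higher and 3 lower under gefitinib (all genes, 2610 of 16398 higher and 12.6% lower). Under afatinib it called 1 higher and 0 lower (all genes, 1494 of 16398 higher and 3.04% lower). The gene that rose by edgeR was Fbln1 (fibulin-1, a protein of elastic fibres and basement membranes). It had 55.3 and 41.3 CPM under gefitinib and 30.4 and 41.5 CPM under afatinib, against 15.6 and 17.04 CPM in untreated skin. Its log2 fold change was 1.56 (adjusted p = 0.0155) under gefitinib and 1.14 (adjusted p = 0.0641) under afatinib. Fbln2 had -1.60 (adjusted p = 0.0702) under gefitinib, Ltbp2, a latent TGF-beta binding protein, 1.73 (adjusted p = 0.0735) and Fbn2 -1.65 (adjusted p = 0.167). The median of this list was -0.75 under gefitinib and -0.35 under afatinib.

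Of 19 tested matricellular and adhesive glycoproteins, 0 rose (all genes, 12.3%) and 6 fell (5.45%) under gefitinib, while 1 rose (3.6%) and 0 fell (0.372%) under afatinib. Thbs4, Vtn and Sparcl1 were among the 6 that fell, and the list's median was -0.84 under gefitinib and -0.36 under afatinib. Thbs4, a thrombospondin of tendon and muscle, had 10.1 and 4.81 CPM under gefitinib and 28.7 and 5.97 CPM under afatinib, against 100.8 and 35.1 CPM in untreated skin, a log2 fold change of -3.19 (adjusted p = 0.0411) under gefitinib. Tendon markers moved with it, at 12.1 and 11.5 CPM under gefitinib, 48.0 and 7.71 CPM under afatinib and 53.1 and 45.7 CPM in untreated skin (3 of 3 in the file, none at 0), and their part was not tested. Vtn, the adhesive protein vitronectin, had 8.35 and 5.38 CPM under gefitinib and 29.1 and 14.1 CPM under afatinib, against 42.2 and 29.1 CPM in untreated skin, a log2 fold change of -2.38 (adjusted p = 0.0172) under gefitinib. Sparcl1, a relative of Sparc, fell by 1.88 under gefitinib (adjusted p = 0.0215), with 88.3 and 50.5 CPM under gefitinib and 224 and 176 CPM under afatinib, against 299 and 212 CPM in untreated skin. Tnn, the tenascin-W gene and a relative of Tnc, rose under afatinib (adjusted p = 0.0412), with 1.82 and 3.78 CPM under afatinib and 0.470 and 0.306 CPM under gefitinib. In untreated skin it had 2 counts in all, so the ratio of summed counts was 48.2 for afatinib (95% exact interval 13.1 to 403, 126 counts) and 6.22 for gefitinib (1.5 to 55.0, 19 counts), covering counting error only.

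Of 15 tested matrix receptors, 1 rose (all genes, 12.3%) and 3 fell (5.45%) under gefitinib and 0 passed under afatinib (3.98% in either direction), with a median of -0.47 and -0.02. Cd44, the hyaluronan receptor, rose under gefitinib by 1.72 (adjusted p = 0.0201), with 154 and 153 CPM, and had 93.1 and 171 CPM under afatinib, against 45.5 and 47.7 CPM in untreated skin. Cd44 is also expressed by basal keratinocytes, whose markers are given above. Itga5, which pairs with integrin beta 1 as the fibronectin receptor, had 23.7 and 12.7 CPM under gefitinib and 33.97 and 40.4 CPM under afatinib, against 43.5 and 45.4 CPM in untreated skin, and fell by 1.29 under gefitinib (adjusted p = 0.0378). The collagen-binding Itga11 fell by 1.97 (adjusted p = 0.0325) and Itga4 by 1.46 (adjusted p = 0.0342) under gefitinib.

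Of 13 TGF-beta ligands, receptors and targets, 1 rose (all genes, 12.3%) and 3 fell (5.45%) under gefitinib and 0 passed under afatinib (3.98%), with a median of -0.05 and 0.03. Tgfb2, a ligand, fell by 1.5 (adjusted p = 0.0191), Tgfbr2, a receptor, by 1.82 (adjusted p = 0.0299) and Smad3, a signal transducer, by 1.12 (adjusted p = 0.0493) under gefitinib. Smad3 turned to 0.27 on the fibroblast scale. Pmepa1, a target that damps the pathway, rose by 1.32 (adjusted p = 0.0179). Of the 6 small leucine-rich proteoglycans tested, 0 passed under either inhibitor alone (all genes, 17.7% under gefitinib and 3.98% under afatinib), and Prelp fell with both inhibitors together (log2 fold change -1.63, adjusted p = 0.0454), at 49.9 and 18.4 CPM under gefitinib and 65.2 and 29.8 CPM under afatinib, against 132 and 117 CPM in untreated skin. Of the 6 fibrillar collagens, 0 rose (all genes, 12.3%) and 1, Col5a3, fell by 2.55 under gefitinib (adjusted p = 0.0311; all genes, 5.45%), and 0 passed under afatinib, with a median of -2.13 and -1.32. Where edgeR called 0 genes of a list under afatinib, the counts at an unadjusted p under 0.05 were 1 higher for the receptors, 1 higher and 2 lower for the TGF-beta list, and 1 lower each for the proteoglycans and the collagens. At that threshold 5.91% of all genes were lower, and the share higher was not counted. DESeq2 called 1 receptor, 1 TGF-beta gene and 0 proteoglycans and collagens higher under afatinib (all genes, 1494 of 16398). It called 1 TGF-beta gene and 1 collagen lower (all genes, 3.04%). Under afatinib, limma-voom called 0 genes of any of the 6 lists (all genes, 0.207% in either direction). Under gefitinib, DESeq2 called 1 proteoglycan and 5 collagens lower (all genes, 12.6%).

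These calls depended on the scale between libraries and on single libraries. Calls over the whole table under each inhibitor also fell in number without either gefitinib library, so such losses are not particular to these lists. On total counts alone the list medians under gefitinib and afatinib were -0.03 and 0.28 for elastic fibre assembly, -0.12 and 0.20 for matricellular genes, 0.23 and 0.69 for receptors, 0.65 and 0.70 for the TGF-beta list, 0.58 and 0.45 for the proteoglycans and -1.35 and -0.79 for the fibrillar collagens, beside 0.73 and 0.71 over all genes. On total counts Sparcl1, Itga5, Itga11, Itga4, Tgfb2, Tgfbr2, Smad3, Col5a3 and Prelp no longer passed, and on the fibroblast scale neither they nor Thbs4 and Vtn did, whereas Fbln1, Cd44 and Pmepa1 under gefitinib and Tnn under afatinib passed on each of the 4 scales. The 13 calls named under gefitinib were all lost without gefitinib library 2 (adjusted p from 0.0557 to 0.195), and 8 of them without gefitinib library 1, where Col5a3, Itga11, Itga5, Tgfbr2 and Vtn still passed. Tnn under afatinib was lost without gefitinib library 1 (0.0789), gefitinib library 2 (0.0817) or afatinib library 2 (0.141). Prelp with both inhibitors was lost without gefitinib library 2 or afatinib library 2. Each call named here for a gene of these lists was also lost when either untreated library was left out. So were nearly all calls over the whole table, with 10 genes left under gefitinib without untreated library 1 and 0 without untreated library 2.

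**Figure D5:**
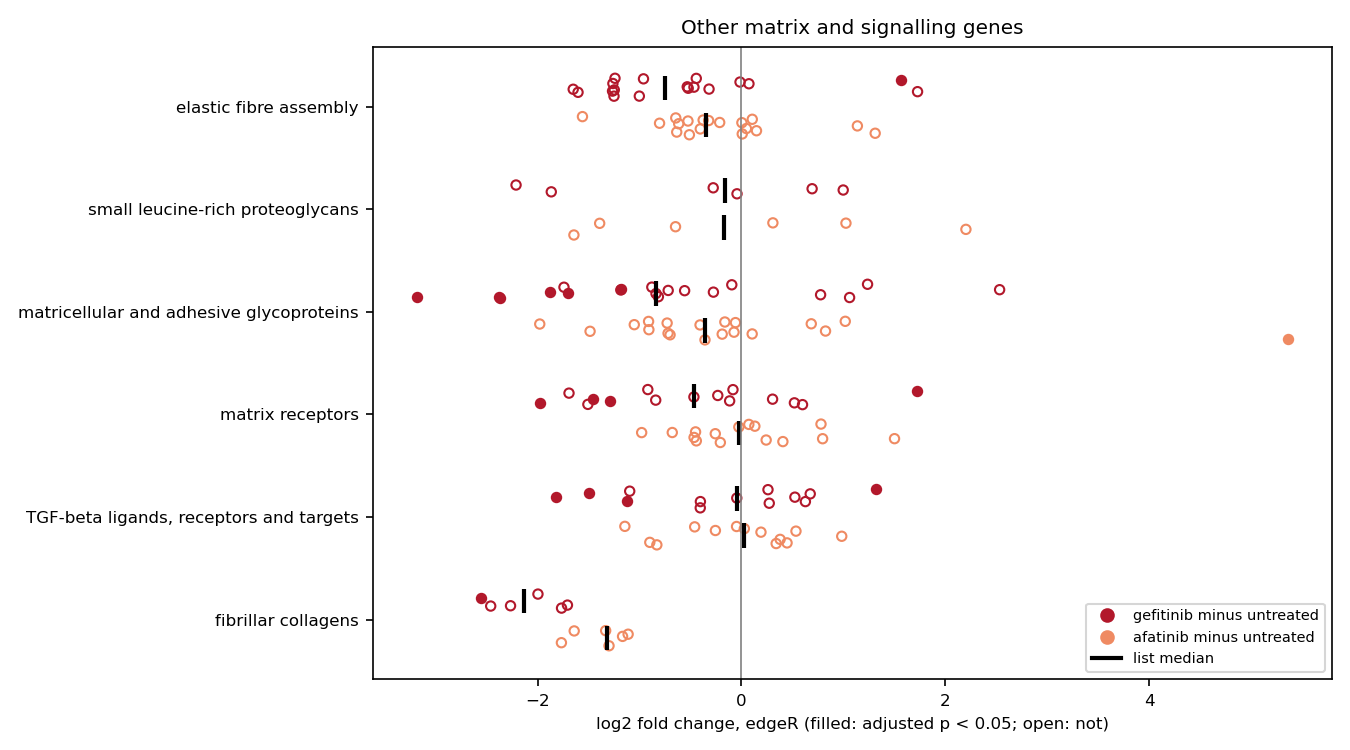
Log2 fold changes over untreated skin (x axis) of the genes tested in 6 lists of matrix and signalling genes, for gefitinib and afatinib; filled points passed an adjusted p of 0.05 and the black tick is the list's median. The fibrillar collagen medians, -2.13 and -1.32, lie farthest to the left, and the rightmost filled point is Tnn under afatinib.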

How the data were processed

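Per the labels' protocols, RNA was extracted from back skin with Trizol and sequenced as Illumina TruSeq libraries. The submitters' processing notes name DESeq2 1.16.1, featureCounts 1.5.0-p3 and HISAT2 2.0.5; their order, genome build, annotation and strand setting are not stated there. Raw counts per gene were deposited as whole numbers for 34225 loci, 1342 of them without a name. The deposited FPKM table was made by the authors from these counts, with a divisor for each library that equals the DESeq2 size factor times 19675160.

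Counts of the 6 libraries (17206456 to 22086673) were filtered with filterByExpr, scaled with TMM and fitted on all 16398 remaining loci with edgeR 4.0.16 in R 4.3.3, with 3 groups, 3 residual degrees of freedom, Benjamini-Hochberg adjustment over all loci and a threshold of 0.05. The procedure was tested on simulated data. DESeq2 1.42.0, limma 3.58.1 (voom), other scales, no filter and left-out libraries were alternatives. Every sample was grouped by its label. The labels number the replicates of each group. Over all genes tested, the numbers did not pair the libraries (correlation of deviations from the group mean -0.17 to 0.04). By CPM, however, replicate 1 was above replicate 2 in every group for Postn, Sparc, Fn1, Lum, Dcn, Fbn1 and Lox. The share of all genes with that order was not counted, and its cause was not tested.

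Named genes were the 10 members, the 4 tested genes of each of 6 pathway lists with the smallest p in both inhibitors against untreated skin, and the 3 genes most like Tnc or the other 9. The members and lists were chosen with earlier results of these data known.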

Additional observations from a re-analysis of the deposited data

How the results depend on the processing

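The number of the 10 genes called under gefitinib was 1 in the reported fit (17.7% of all genes called), 6 by DESeq2 (28.6%), 5 with no filter on low counts (20.4%), 4 with the replicate block (14%) and 2 with only the groups compared (33.3%). Under afatinib it was 1 (3.98%), and 0 by limma-voom (0.207%), with the replicate block (2.25%) and with only the groups compared (0.327%), Tnc being the call lost. With both inhibitors it was 1 (16%), and 4 by DESeq2 (25.9%), 5 with no filter (18.8%) and 4 with the replicate block (12.4%). Leaving out 1 library gave 0 to 2 genes for gefitinib, 0 to 1 for afatinib, 0 to 4 for both inhibitors and 0 to 0 for afatinib against gefitinib. Under gefitinib the replicate block called Fbn1, Lox and Postn lower, besides Tnc. Over all genes the replicate numbers did not pair the libraries, although replicate 1 was the higher in every group for several of the 10. The block shows only how a shared number moves the calls.

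Over all genes, gefitinib had 2906 calls (2013 higher and 893 lower), 4682 by DESeq2 (2610 and 2072), 4550 with no filter, 2298 with the replicate block, 5286 with only the groups compared and 0 to 5320 with 1 library left out; on total counts 3071 were higher and 191 lower, and on the fibroblast scale 3223 and 23. Afatinib had 652 (591 and 61), 1281 on total counts (1250 and 31), 997 without skeletal muscle markers in the totals, 1992 by DESeq2 (1494 and 498), 34 by limma-voom, 2083 with no filter, 369 with the replicate block, 51 with only the groups compared, 1020 on the fibroblast scale and 0 to 3653 with 1 left out. Both inhibitors had 2618 (1810 and 808), 4251 by DESeq2, 4200 with no filter and 3 to 5809 with 1 left out; on total counts 3124 were higher and 225 lower. Afatinib against gefitinib had 0, 1 on total counts, 31 by DESeq2, 28 with no filter, 8 on the fibroblast scale and 0 to 3 with 1 left out. A fit of both inhibitors with only the groups compared is the reported fit itself and was not run again.

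Log2 fold changes turned sign as follows, and the cause was not tested. On total counts Eln had 0.44 under gefitinib, 0.17 under afatinib and 0.31 with both, Lum 0.14 under gefitinib and 0.38 with both, and Dcn 0.38 under afatinib. Without skeletal muscle markers in the totals Eln had 0.26, 0.048 and 0.16, Dcn 0.27 under afatinib and Lum 0.24 with both. On the fibroblast scale, chosen after seeing the data, Eln had 0.42, 0.16 and 0.29, Dcn 0.079, 0.34 and 0.21, Lum 0.41 under gefitinib and 0.51 with both, and Smad3 0.27 under gefitinib; for afatinib against gefitinib Fn1 had -0.12, Lox -0.25 and Thbs1 -0.15. Lum under afatinib was -0.052 by DESeq2 and -0.044 with only the groups compared. Eln, afatinib against gefitinib, was 0.77 by limma-voom and 0.46 with the replicate block. With 1 library left out, afatinib against untreated ran from -0.67 to 0.18 for Dcn, -0.39 to 0.60 for Lum and -0.15 to 1.23 for Thbs1. Gefitinib against untreated ran from -3.06 to 0.46 for Eln and -0.38 to 0.97 for Thbs1, and both inhibitors from -0.99 to 0.28 for Lum. Afatinib against gefitinib ran from -1.03 to 2.49 for Eln, -0.54 to 1.93 for Fn1, -0.27 to 1.31 for Lox, -0.020 to 1.86 for Lum, -0.17 to 1.95 for Sparc, -0.60 to 1.01 for Thbs1 and -0.18 to 1.32 for Tnc.

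Each group has 2 libraries. With 1 left out of a group, its lone library is assumed to vary like the other groups.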

Other observations

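Over the 6 libraries, the genes whose log2 CPM was most like that of Tnc, among 8708 named genes with a mean of at least 10 CPM, were Fzd2, a Wnt receptor (Pearson r = 0.992), Ap1ar (0.991) and Parm1 (0.988). Fzd2 had 24.1 and 17.8 CPM under gefitinib and 18.4 and 27.5 CPM under afatinib, against 10.1 and 10.4 CPM in untreated skin. The untreated libraries stand apart from the others for Tnc, so these values mostly describe that gap, and they carry no test. The mean of the other 9 genes was most like Sned1 (r = 0.993), Glis2 (0.992) and Rab31 (0.991). On total counts alone these were 0.987, 0.737 and 0.720, while the 3 genes most like Tnc stayed between 0.985 and 0.992. Sned1, a secreted matrix glycoprotein, had 16.9 and 4.02 CPM under gefitinib and 16.2 and 15.8 CPM under afatinib, against 27.2 and 18.3 CPM in untreated skin, with gefitinib library 2 again the lowest.

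Schwann cell markers (4 of 4 in the file, none at 0) summed to 108 and 68.1 CPM under gefitinib and 133 and 84.4 CPM under afatinib, against 925 and 584 CPM in untreated skin. By edgeR 3 of the 4 fell under gefitinib (all genes, 5.45%) and 2 under afatinib (0.372%). Dermal papilla markers (7 of 7, none at 0) summed to 65.3 and 63.5 CPM under gefitinib and 18.8 and 89.8 CPM under afatinib, against 7.81 and 14.7 CPM in untreated skin. Of these, 3 rose under gefitinib (all genes, 12.3%) and 0 under afatinib (3.6%). At an unadjusted p under 0.05, 5 were higher under afatinib, and the share of all genes higher at that threshold was not counted. Endothelial markers (6 of 7 in the file, none at 0) summed to 232 and 84.3 CPM under gefitinib and 323 and 284 CPM under afatinib, against 493 and 409 CPM in untreated skin. By edgeR 3 of 6 fell under gefitinib (all genes, 5.45%).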
